A study of Mus musculus with 18 samples.

Results

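The 86 genes described here code for the proteins of the cytosolic ribosome, and they were picked by name from the 54532 genes of the deposited table. Members are protein-coding genes named Rps or Rpl with a number, plus Rpsa, Rplp0, Rplp1 and Rplp2, without pseudogenes and without the kinases whose names begin with Rps6k. Small subunit names account for 34 of them and large subunit names for 52. The 77 core members each code for a standard ribosomal protein, and the 9 others are paralogues or related genes (Rpl3l, Rpl7l1, Rpl10l, Rpl22l1, Rpl36al, Rpl39l, Rps27l, Rps27rt and Rps19bp1, the last of which codes for a binding protein of Rps19 and not for a ribosomal protein). The members lie on 19 chromosomes.

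A cytosolic ribosome joins a small subunit, which reads the mRNA, to a large subunit, which forms the peptide bond, and cells make most of the proteins of both subunits in equal amounts. Mammalian ribosomal protein mRNAs typically begin with a C followed by a run of pyrimidines, the terminal oligopyrimidine (TOP) tract, through which the kinase complex mTORC1 and the RNA-binding protein Larp1 control their translation. New ribosomes are assembled in the nucleolus from ribosomal RNA made by RNA polymerase I, and free Rpl5 and Rpl11 can bind Mdm2, the ubiquitin ligase of p53. In macrophages, as in other cells, ribosomal protein mRNAs are among the most abundant transcripts.

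Polyadenylated RNA was sequenced from bone marrow macrophages of mice aged 2 to 3 months that were grown in CSF-1, then kept without serum before the treatment. Groups labelled KO carried floxed Smad1 (Smad1 fl/fl) with LyzM-Cre, called MyS1KO by the submitters, and groups labelled FL carried Smad1 fl/fl alone. Cells of each genotype were given TGF-β1 at 10 ng/ml, were given BMP4 at 50 ng/ml, each over 4 h, or were left untreated, which gives 6 groups of 3 libraries numbered 1 to 3. LyzM-Cre expresses Cre from the lysozyme gene Lyz2 in myeloid cells, so any deletion is limited to cells that have used this locus. Nothing in the labels ties a library to an animal or culture of its own, so p-values measure the spread between these libraries, which may be technical.

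Lyz2, which the Cre insertion disrupts, went against the genotype labels. It stood at 13400 to 17800 CPM (counts scaled to library size) in the 9 KO-labelled libraries, at 8110 to 9860 CPM in the 6 FL-labelled libraries numbered 2 and 3, and at 37.6 to 74.3 CPM in the 3 FL-labelled libraries numbered 1. Smad1, counted over the whole gene, was at 25.9 to 26.8 CPM in KO-labelled and 30.0 to 31.0 CPM in FL-labelled untreated libraries. With BMP4 it was at 24.3 to 26.2 and 27.6 to 31.0 CPM, and neither pair overlapped. With TGF-β1 it was at 19.4 to 23.6 and 22.1 to 26.3 CPM, which overlapped. The exon flanked by loxP sites is not given in the sources used here. Each direction between genotypes below therefore rests on labels that Lyz2 contradicts. Csf1r, the receptor for CSF-1, stood at 4420 to 4980 CPM in KO-labelled and 4080 to 4880 CPM in FL-labelled libraries, and all 14 macrophage markers examined were tested, while each lymphoid and mast cell marker was under 1 CPM in every library. Total counts ranged from 15153296 to 24639163 per library.

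The stretch around the transcription start shows which members carry a TOP tract in the annotation. RefSeq starts (GRCm38.p6) were found for 66 of the 86 members, with 78 starts between them. A C at the start followed by at least 4 C or T was present at a start of 14 of these 66 members (21.2%) and of 3.01% of all 27025 genes with a start in the same table. A looser rule, 7 or more C or T in a row within 15 bases either side of the start, held for 51.5% of members and 21.3% of all genes. Windows of 15 bases before and 15 bases from the start are printed below for members whose counts are described in the comparisons, 5′ to 3′ on the strand of the gene, with the pyrimidine run from the annotated start in capitals. The first 7 begin with the tract, although other annotated starts of Rpl35a do not. The last 4 lack it at the annotated base, which may differ from the start used in these cells.
Rps18 (chr17:33955651-33955680, minus strand): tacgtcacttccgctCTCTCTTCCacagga
Rps6 (chr4:86857353-86857382, minus strand): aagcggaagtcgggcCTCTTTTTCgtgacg
Rpl35 (chr2:39005117-39005146, minus strand): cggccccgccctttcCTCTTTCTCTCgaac
Rpl35a (chr16:33056467-33056496, plus strand): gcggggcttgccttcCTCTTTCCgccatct
Rps27 (chr3:90213634-90213663, minus strand): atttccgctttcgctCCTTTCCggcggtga
Rpl38 (chr11:114668565-114668594, plus strand): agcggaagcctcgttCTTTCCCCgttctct
Rps15a (chr7:118116133-118116162, minus strand): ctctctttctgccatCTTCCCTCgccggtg
Rpl11 (chr4:136053379-136053408, minus strand): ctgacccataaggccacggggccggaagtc
Rpl18 (chr7:45718056-45718085, plus strand): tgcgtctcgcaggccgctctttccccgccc
Rps9 (chr7:3704026-3704055, plus strand): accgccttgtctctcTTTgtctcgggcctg
Rpl36a (chrX:134585639-134585668, plus strand): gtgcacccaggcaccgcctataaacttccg

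Most ribosomal protein mRNAs were abundant in every library. The median core member had 211 FPKM (fragments scaled to gene length and library size), against 5.95 FPKM for the 12035 protein-coding genes tested, and 64 of the 86 members were among the 500 genes with the highest mean FPKM. Rplp1, an acidic protein of the stalk that recruits elongation factors, was highest at 1100 FPKM (882 to 1210 over 18 libraries). Rpl17, which lines the peptide exit tunnel, followed at 687 FPKM and Rplp0, the base of the stalk, at 685 FPKM, and these neighbours did not differ beyond their ranges (578 to 776 and 583 to 746 FPKM). Rps15 (653 FPKM), Rps3a1 (596 FPKM), Rpl41 (457 FPKM), Rps4x (454 FPKM) and Rpl32 (424 FPKM) completed the 8 highest, and the last 3 overlapped in range. Core members other than Rpl13a, Rps10 and Rpl24, which are described next, had mean levels of 42.3 to 1100 FPKM. FPKM divide by the full length of the annotated exons, so this order and range depend on the annotation.

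At the low end, 3 core members were under 20 FPKM. Rpl13a stood at 9.43 FPKM, Rps10 at 1.17 FPKM and Rpl24 at 0.965 FPKM. Each shares exon bases on its own strand with another annotated gene, Rpl13a over 35.4% of its exon bases, Rpl24 over 47.0% and Rps10 over 20.6%, and their largest partners (Gm45713, Gm28037 and RPS10-NUDT3) were at 0 CPM. How reads that fit both genes were counted is not given in the sources used here, so the levels of these 3 are uncertain. Among the paralogues, Rps27l had 98.8 FPKM beside 188 FPKM for Rps27, and Rpl22l1 had 8.74 FPKM. Rpl36al, at 0.377 FPKM beside 98.2 FPKM for Rpl36a, shares 24.5% of its exon bases with Gm49383. Rpl3l, a paralogue known from striated muscle, and Rpl39l, known from testis, were at 0.0769 and 0.329 FPKM and too low to test, and Rpl10l, also known from testis, had 0 counts in all 18 libraries, which allows up to 0.122 to 0.198 CPM depending on the library. That left 83 members tested.

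Between libraries of 1 group most members varied little, with a median SD of 0.08 in log2 CPM. The SD was highest for Rpl29 (1.157), Rpl36al (1.039), Rps2 (0.483), Rpl24 (0.383) and Rps10 (0.292). Of these, Rpl36al, Rpl24 and Rps10 had few counts, with mean levels of 0.377, 0.965 and 1.17 FPKM. Rpl29 and Rps2 both split by library number, alike in all 3 treatments. Rpl29, a small protein of the large subunit, was at 68.4, 67.0 and 72.5 CPM in the KO-labelled TGF-β1, BMP4 and untreated libraries numbered 2, and at 65.2, 75.6 and 67.5 CPM in the FL-labelled libraries numbered 1. The KO-labelled libraries numbered 3 had 351 to 387 CPM, those numbered 1 had 235 to 252 CPM and the FL-labelled libraries numbered 2 and 3 had 226 to 261 CPM. Rpl29 thus took 3 separate levels that followed the number within a genotype and not the treatment, and the low level occurred under both genotype labels.

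Rps2, a small subunit protein at the mRNA entry side, stood at 198 to 211 CPM in the KO-labelled libraries numbered 2, at 445 to 508 CPM in the other 6 KO-labelled libraries and at 530 to 614 CPM in the 9 FL-labelled libraries. Counts of the annotated processed pseudogene Rps2-ps10 went the other way. It had 284 to 384 CPM in the KO-labelled libraries numbered 2, 129 to 148 CPM in the other KO-labelled libraries and 166 to 221 CPM in FL-labelled libraries. The pseudogene held 57.7 to 64.5% of the summed Rps2 and Rps2-ps10 CPM in the KO-labelled libraries numbered 2, 22.2 to 24.8% in those numbered 1 and 3, and 23.7 to 26.7% in FL-labelled libraries. The sum was 492 to 656 CPM in KO-labelled and 695 to 835 CPM in FL-labelled libraries, which did not overlap. Rps2 and Rpl29 were the only 2 of 83 members with a fold of 1.5 or more between the libraries of 1 number and the other 6 of its genotype without overlap. In the KO-labelled libraries numbered 1, 2 and 3 the rule was met by 0, 2 and 1 of 83 members, beside 0.558, 1.44 and 0.627% of all genes tested. In the FL-labelled ones it was met by 1, 0 and 0 members, beside 0.783, 0.586 and 0.599%. These shares hold for 1 genotype and number each, so they are not the background of the 2 members pooled over all of them.

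**Figure D1:**
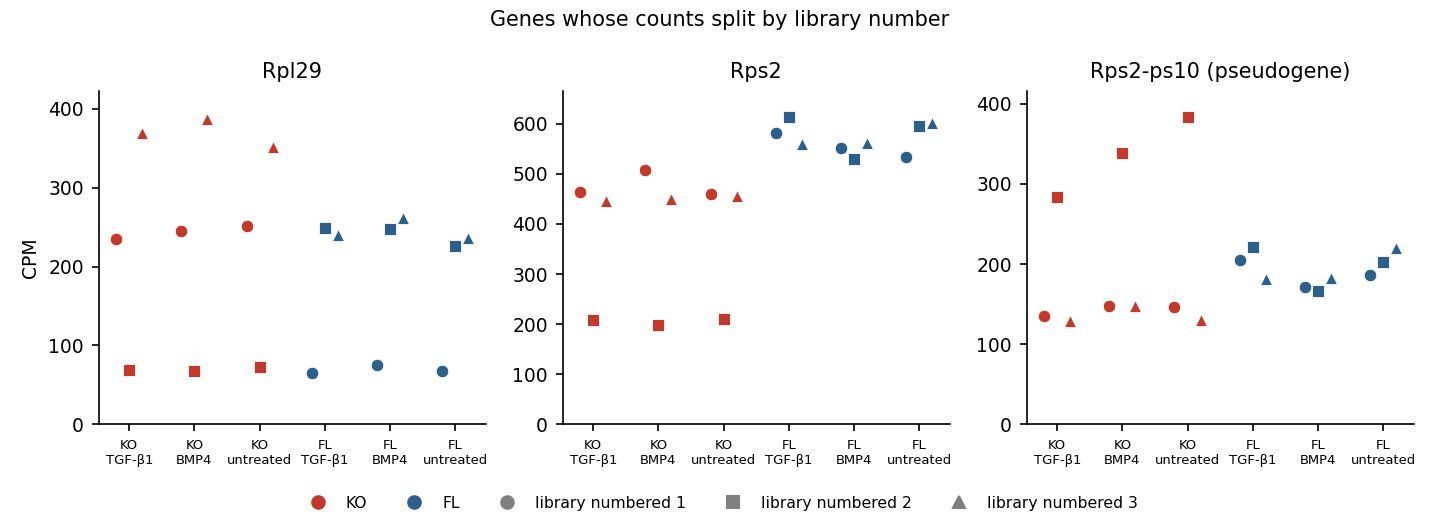
CPM of Rpl29, Rps2 and the pseudogene Rps2-ps10 in each of the 18 libraries (1 point each, shape by library number, linear axis from 0), with KO-labelled groups left of FL-labelled groups. Rpl29 was at 67.0 to 72.5 CPM in KO-labelled libraries numbered 2 and 65.2 to 75.6 CPM in FL-labelled libraries numbered 1, and Rps2 and Rps2-ps10 trade places in KO-labelled libraries numbered 2.

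The genotype comparison asks whether cells labelled as lacking Smad1, a transcription factor activated by BMP receptors, differ from cells with intact alleles. Members as a whole took a smaller share of counts in KO-labelled cells. With TGF-β1 the share was 2.97, 2.91 and 2.90% in the KO-labelled libraries numbered 1, 2 and 3, against 3.16, 3.30 and 3.26% in FL-labelled libraries. With BMP4 it was 3.05, 2.87 and 2.88% in KO-labelled and 3.36, 3.23 and 3.25% in FL-labelled libraries. In untreated cells it was 2.67, 2.92 and 2.72% in KO-labelled and 3.27, 3.22 and 3.18% in FL-labelled libraries. Every KO-labelled library (mean 2.88% ± 0.118, SD, n = 9) was below every FL-labelled library (mean 3.25% ± 0.0614, SD, n = 9), and the 6 FL-labelled libraries not numbered 1 gave the same separation (3.18 to 3.30%). The 9 libraries of a label pool 3 treatments, and same numbers pair libraries within a genotype. They are therefore not shown to be 9 independent replicates. The difference was -0.315 percentage points with TGF-β1, -0.347 with BMP4 and -0.454 in untreated cells. These shares sum over the members and are given without a test, and in bulk RNA, fewer cells of a type cannot be told apart from less RNA per cell.

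**Figure D2:**
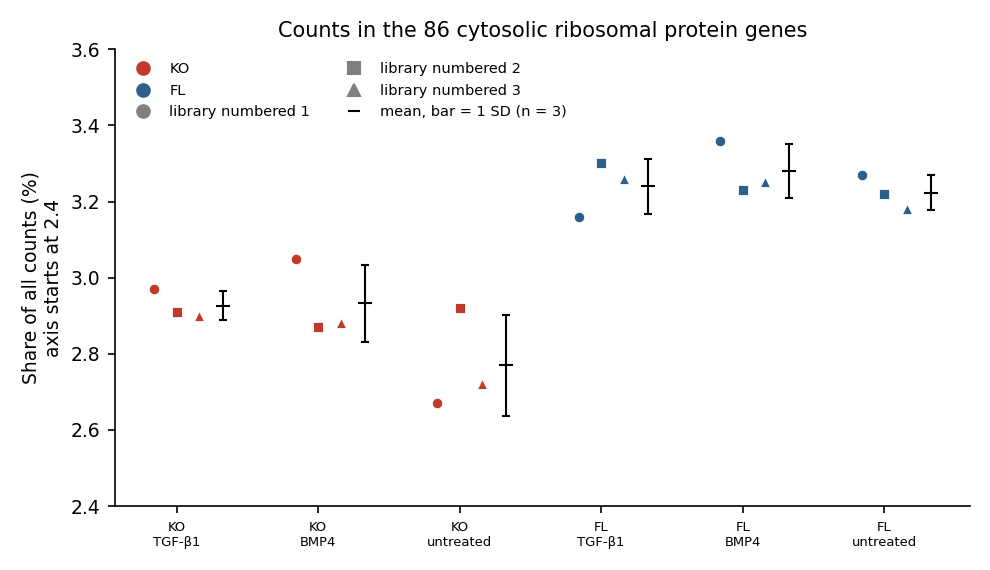
Share of all counts (%, axis from 2.4) in the 86 genes for each library (points, shape by number), with the mean and 1 SD of each group (n = 3) in black, KO-labelled groups left of FL-labelled groups. KO-labelled libraries lie at 2.67 to 3.05% and FL-labelled libraries at 3.16 to 3.36%.

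In untreated cells 27 of 83 members were lower and 0 higher in KO-labelled than in FL-labelled cells by edgeR's quasi-likelihood test (Benjamini-Hochberg adjusted p under 0.05 over the 14684 genes tested), where 1.1% of all genes were called lower and 1.29% higher. The median log2 fold change of the 83 members was -0.20, against 0.00 over all genes, and 81 of 83 were negative. All 27 were core members, 14 of the small and 13 of the large subunit. The CPM of 54 members did not overlap and lay lower in the KO-labelled libraries, against 9.27% of all genes, and 0 lay higher, against 11.2%.

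Rps18, a protein of the small subunit's head, had the most negative log2 fold change among the called members. It had 291, 272 and 362 CPM in KO-labelled and 455, 443 and 442 CPM in FL-labelled untreated libraries, a log2 fold change of -0.53 (SE 0.12, edgeR adjusted p = 0.0312). All KO-labelled values were below all FL-labelled ones, and the library numbered 3 was the highest KO-labelled one in each treatment. Rps16 had 341, 419 and 369 CPM in KO-labelled and 478, 459 and 441 CPM in FL-labelled libraries (log2 fold change -0.29, SE 0.07, edgeR adjusted p = 0.0335). Rps6, the substrate of the S6 kinases downstream of mTORC1, had 370, 421 and 390 CPM in KO-labelled and 492, 485 and 454 CPM in FL-labelled libraries (-0.28, SE 0.05, edgeR adjusted p = 0.0139). The groups did not overlap for either gene. Rps19, the gene most often mutated in Diamond-Blackfan anaemia in people, had a log2 fold change of -0.28 and passed (edgeR adjusted p = 0.0390), while Rps14, affected in the human 5q- syndrome, had the same value and did not pass (edgeR adjusted p = 0.0502). Rpsa, also known as a laminin receptor (-0.23), Rps3a1 (-0.21) and Rps4x (-0.18) were called lower as well, as were Rps3, Rps9, Rps15, Rps20, Rps23 and Rps25, with log2 fold changes between -0.25 and -0.21. Rps25 shares 24.8% of its exon bases with other genes on either strand, and the strand setting of the counting is not given in the sources used here.

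Among large subunit genes Rpl35a, another Diamond-Blackfan anaemia gene in people, had 209, 238 and 204 CPM in KO-labelled and 270, 300 and 263 CPM in FL-labelled untreated libraries (log2 fold change -0.35, SE 0.08, edgeR adjusted p = 0.0340). Rpl11 had 316, 394 and 321 CPM in KO-labelled and 425, 456 and 416 CPM in FL-labelled libraries (-0.33, SE 0.08, edgeR adjusted p = 0.0370). Its partner in the 5S particle, Rpl5, was also called lower (-0.20, SE 0.05, edgeR adjusted p = 0.0346). Rpl5 shares 26.7% of its exon bases with other genes on either strand, 24.3% with Fam69a on the other strand, which had 51.6 CPM. In Rpl35a, Rpl11 and Rpl5 the KO-labelled library numbered 2 was the highest of its group, and no KO-labelled value reached an FL-labelled one. Rpl18 had 341, 398 and 346 CPM in KO-labelled and 447, 468 and 438 CPM in FL-labelled libraries (-0.32, edgeR adjusted p = 0.0135). Rpl36a, which contacts the tRNA exit site, had 131, 142 and 134 CPM in KO-labelled and 182, 168 and 156 CPM in FL-labelled libraries (-0.31, edgeR adjusted p = 0.0111). Rpl35 (-0.29), which sits beside the exit of the peptide tunnel, was also called lower. Rpl35 shares 66.2% of its exon bases with Wdr38 on the other strand, which had 0.524 CPM. Further called genes were Rpl4, Rpl8, Rpl9, Rpl21, Rpl23 and Rpl26, between -0.22 and -0.18.

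Several members were not called in this comparison. The stalk genes had log2 fold changes of -0.17 (Rplp0), -0.15 (Rplp1) and -0.16 (Rplp2), with edgeR adjusted p of 0.0880, 0.258 and 0.311. Rpl10, which joins the large subunit late in assembly, was at -0.14 (edgeR adjusted p = 0.178). Rpl39, Rpl22l1 and Rps27rt were at -0.04, -0.05 and 0.06. Rps2 (-0.62) and Rps10 (-0.63) had the most negative values but wide errors (SE 0.30 and 0.24), and Rpl29 was at 0.35 with an SE of 0.69. Fau (-0.25) and Rack1 (-0.16), which also code for proteins of the ribosome, were not called either (edgeR adjusted p of 0.0697 and 0.0741).

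The count of 27 depended on single libraries. Without the FL-labelled libraries numbered 1, in which Lyz2 was low, edgeR called 0 (62 members and 2282 of 15031 genes at an unadjusted p under 0.05, the members all lower, with a median log2 fold change of -0.19 over the members then tested). Leaving out the KO-labelled untreated library numbered 1, 2 or 3 gave 0, 56 and 1 called members, beside 27, 613 and 36 genes in all (58 members at an unadjusted p under 0.05 without the one numbered 1), and leaving out the FL-labelled untreated library numbered 1, 2 or 3 gave 2, 11 and 16, beside 73, 210 and 140 genes. The median log2 fold change of the members stayed between -0.26 and -0.17 over these 6 fits. DESeq2 called 43 members, all lower, and 539 of 14684 genes, and edgeR on the 6 untreated libraries alone called 1 member and 29 of 13466 genes.

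Gene length moved with the same comparison. Among protein-coding genes outside the list with at least 10 CPM, the median log2 fold change of KO-labelled over FL-labelled untreated cells was -0.19 for 130 genes under 1000 bases, -0.13 for 705 genes of 1000 to under 2000 bases, -0.06 for 2410 genes of 2000 to under 4000 bases and 0.03 for 5124 genes of 4000 bases and over, and 14.6%, 6.95%, 1.45% and 0.449% of them were called lower. The median core member has 1770 bases of annotated exon, against 4370 for protein-coding genes tested. Within the list the median was -0.19 for members under 1500 bases, -0.20 for those of 1500 to under 2500 and -0.20 for those of 2500 and over. With TGF-β1 the shortest class of other genes had a median of -0.16, and with BMP4 it had -0.08, beside -0.12 and -0.15 for the members. The part of gene length in the members' difference was not tested.

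Other measures also differed by genotype label. The summed CPM of 14 macrophage markers, Lyz2 among them, was 27300 to 33400 in KO-labelled and 13900 to 25700 in FL-labelled libraries. Lyz2 alone made up 13400 to 17800 CPM in KO-labelled and at most 9860 CPM in FL-labelled libraries. Csf1r, Adgre1, Cd68 and Itgam, also among these markers, each overlapped between the labels. The summed CPM of 5 monocyte markers was 386 to 510 in KO-labelled and 530 to 801 in FL-labelled libraries, and that of 6 erythroid and platelet markers was 152 to 214 in KO-labelled and 219 to 263 in FL-labelled libraries. The mitochondrial genome held 1.02 to 1.16% of counts in KO-labelled and 1.12 to 1.26% in FL-labelled libraries, which overlapped. Its shares also overlapped in untreated cells taken alone, but not with TGF-β1 or with BMP4. Their part in the members' difference was not tested.

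With TGF-β1 on both sides, 3 of 83 members were lower and 0 higher in KO-labelled cells (edgeR, with 0.252% of all genes called lower and 0.136% higher), and the median log2 fold change was -0.12. All 3 were also among the 27 of untreated cells. Rps9, which binds ribosomal RNA early in assembly, had 599, 585 and 594 CPM in KO-labelled and 705, 780 and 700 CPM in FL-labelled libraries (log2 fold change -0.30, SE 0.06, edgeR adjusted p = 0.0421). Rps3a1 had 552, 564 and 551 CPM in KO-labelled and 636, 656 and 641 CPM in FL-labelled libraries (-0.21, SE 0.05, edgeR adjusted p = 0.0468). Neither gene overlapped, and 53 members in all lay lower without overlap, beside 10.0% of all genes. Rpl39, a small protein of the peptide tunnel, was the 1 member that lay higher without overlap (beside 9.19% of all genes), with 103, 101 and 104 CPM in KO-labelled and 82.1, 90.8 and 98.7 CPM in FL-labelled libraries (log2 fold change 0.18, edgeR adjusted p = 0.537). DESeq2 called 7 members and 189 of 14684 genes. Without the FL-labelled libraries numbered 1 the count was 0, beside 2 genes in all (45 members and 1558 of 15031 genes at an unadjusted p under 0.05). Leaving out any 1 of the 6 libraries compared gave 0 or 1, beside 0 to 16 genes in all.

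With BMP4 on both sides edgeR called 0 of 83 members, as did DESeq2, with 0.0204% of all genes called lower and 0.00681% higher by edgeR. At an unadjusted p under 0.05 there were 52 members, all lower in KO-labelled cells, and 1161 of 14684 genes in either direction. The median log2 fold change was -0.15 and 78 of 83 were negative, and 52 members lay lower and 0 higher without overlap, beside 6.21% and 6.97% of all genes. Rps18 had 285, 259 and 346 CPM in KO-labelled and 465, 422 and 429 CPM in FL-labelled libraries, a log2 fold change of -0.56 (SE 0.12, edgeR adjusted p = 0.155), without overlap.

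Over all treatments, 15 of 83 members had every one of the 9 KO-labelled libraries below every one of the 9 FL-labelled libraries, where 0.279% of all genes tested did so and 0.0613% lay higher. They included Rps2, Rps3a1, Rps6, Rps13, Rps16, Rps18 and Rpsa of the small subunit and Rpl4, Rpl8, Rpl11, Rpl12 and Rpl18 of the large subunit. No member had all KO-labelled libraries higher. As above, the 9 libraries of a label are not shown to be 9 independent replicates. Against the 6 FL-labelled libraries not numbered 1, these 15 and Rpl9 met the rule, beside 0.477% of all genes.

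**Figure D3:**
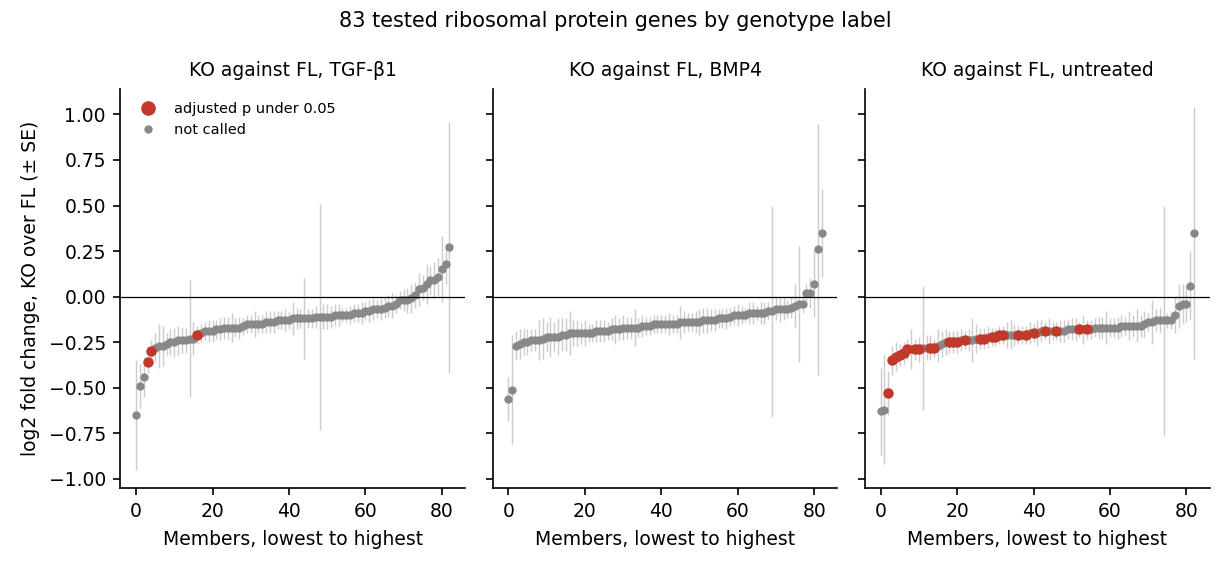
log2 fold change of KO-labelled over FL-labelled cells (points, bars ± 1 SE) for the 83 tested members, sorted within each treatment, with called members in red. Called members number 3 with TGF-β1, 0 with BMP4 and 27 in untreated cells, and most points in each panel lie below 0.

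The treatment comparisons ask what 4 h of TGF-β1 or BMP4 changed within a genotype, and both ligands are set against the same untreated libraries. Same-numbered libraries deviated together within a genotype. The number of members called with the library number as a block is therefore given where it differs. Counts for gene lists and at an unadjusted p are given without the block, which changes some of them.

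Fold changes of ribosomal protein genes with TGF-β1 were small in either genotype, and most were positive. In KO-labelled cells 19 of 83 members rose and 1 fell by edgeR, beside 17.6% and 17.1% of all genes. The share of rises was near that of all genes, and the share of falls was far below it. The median log2 fold change was 0.12 (0.00 over all genes), and 76 of 83 values were positive. With the replicate block 33 rose and 1 fell, beside 20.2% and 20.1% of all genes. The share of rises was then above that of all genes. In FL-labelled cells 2 rose and 1 fell, fewer than the 17.0% and 16.0% of all genes, with a median of 0.04. There 67 of 83 values were positive, and 3 members rose and 1 fell with the block, beside 20.1% and 19.5%. The difference between the responses was called for 0 members by edgeR and by DESeq2 (5 members and 493 genes at an unadjusted p under 0.05 by edgeR, and 7 members and 360 genes by DESeq2, with 0.00681% of all genes called higher and 0.0% lower by edgeR), so the larger count in KO-labelled cells is not shown to differ from that in FL-labelled cells. The number of members called in KO-labelled cells was 10 without the KO-labelled untreated library numbered 1 and 49 without the one numbered 2, and 13 and 12 without the KO-labelled TGF-β1 library numbered 1 or 3, beside 4439, 4660, 4506 and 4352 genes in all. The summed share of counts overlapped between TGF-β1 and untreated libraries in both genotypes.

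Rps29, a zinc-binding protein of the small subunit, had the highest log2 fold change among the members called in KO-labelled cells. It had 163, 151 and 161 CPM with TGF-β1 and 118, 125 and 129 CPM untreated (log2 fold change 0.35, SE 0.12, edgeR adjusted p = 0.0225), without overlap. In FL-labelled cells Rps29 had 148, 141 and 165 CPM with TGF-β1 and 153, 170 and 116 CPM untreated, which overlapped. Rps27, also a zinc-binding small subunit protein, had 220, 221 and 214 CPM with TGF-β1 and 167, 182 and 191 CPM untreated in KO-labelled cells (0.28, SE 0.08, edgeR adjusted p = 0.00872). Its TGF-β1 libraries were all above the untreated ones. Rps15a (0.25), Rpl38 (0.25), known for selective translation of Hox mRNAs in mouse embryos, Rpl3 (0.22), Rps24 (0.22), Rpl36a (0.22) and Rpl22 (0.21) followed, with edgeR adjusted p between 0.00560 and 0.0494. The called rises were otherwise Rpl4, Rpl5, Rpl7, Rpl7l1, Rpl21, Rpl26, Rpl34, Rpl41, Rps23, Rps25 and Rps26, between 0.12 and 0.21.

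Rpl3, which lies at the peptidyl transferase centre, and Rpl7l1, a paralogue of Rpl7, were called higher in both genotypes. In KO-labelled cells Rpl3 had 882, 938 and 861 CPM with TGF-β1 and 723, 839 and 734 CPM untreated. In FL-labelled cells it had 988, 1020 and 945 CPM with TGF-β1 and 907, 874 and 797 CPM untreated (0.20, SE 0.06, edgeR adjusted p = 0.0249). Neither pair overlapped. Rpl7l1 had 112, 103 and 109 CPM with TGF-β1 and 92.6, 97.0 and 97.4 CPM untreated in KO-labelled cells (0.17, SE 0.05, edgeR adjusted p = 0.00860). In FL-labelled cells it had 115, 120 and 119 CPM with TGF-β1 and 104, 104 and 107 CPM untreated (0.17, SE 0.05, edgeR adjusted p = 0.0100). All TGF-β1 libraries were above all untreated ones. In FL-labelled cells 1 member rose without the TGF-β1 library numbered 1 or the untreated library numbered 3, beside 4254 and 4387 genes called in all. Without the TGF-β1 library numbered 2, 0 rose, beside 4347 genes called (edgeR, 3 members positive at an unadjusted p under 0.05).

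The falls were Rps9 in KO-labelled cells and Rps27l, a p53-induced paralogue of Rps27, in FL-labelled cells. Rps9 had 599, 585 and 594 CPM with TGF-β1 and 634, 730 and 627 CPM untreated (log2 fold change -0.16, SE 0.06, edgeR adjusted p = 0.0403). Rps27l had 73.7 to 82.3 CPM with TGF-β1 and 85.5 to 92.3 CPM untreated (-0.19, SE 0.06, edgeR adjusted p = 0.0219), and it was at -0.14 with an adjusted p of 0.218 without the FL-labelled libraries numbered 1. Neither pair overlapped. In KO-labelled cells 0 members fell in edgeR fits without the FL-labelled libraries numbered 1, without any 1 of the 3 TGF-β1 libraries or without the untreated library numbered 2. Genes called in either direction in these fits were 5039, 4352 to 4618, and 4660. The 14 members with a TOP tract at a RefSeq start had a median log2 fold change of 0.14 in KO-labelled and 0.03 in FL-labelled cells, and the 49 tested members with a start and no tract had 0.12 and 0.04.

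**Figure D4:**
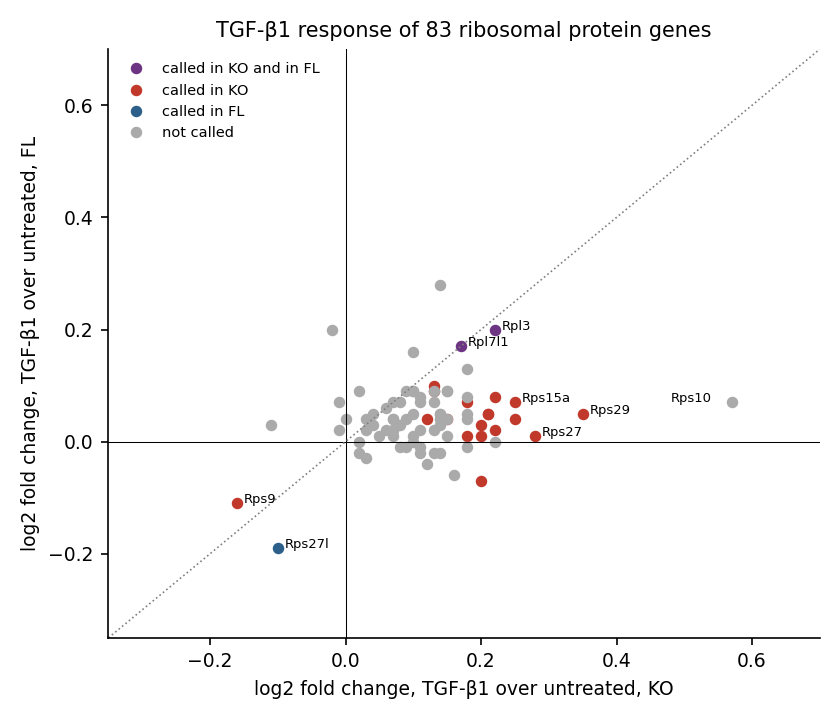
log2 fold change of TGF-β1 over untreated cells for the 83 tested members in KO-labelled cells (horizontal) and FL-labelled cells (vertical), coloured by where edgeR called them, with the line of equality dotted. Rpl3 and Rpl7l1 are called in both, Rps10 at 0.57 in KO-labelled cells is not called, and most points lie between 0 and 0.30 on the horizontal axis.

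Genes that act upstream of the ribosome were examined as lists, chosen with earlier results of these data known, whose counts stand beside the 17.6% of all genes that rose and 17.1% that fell with TGF-β1 in KO-labelled cells and the 17.0% and 16.0% in FL-labelled cells. Of 54 ribosome biogenesis factors, 31 rose and 1 fell with TGF-β1 in KO-labelled cells (median log2 fold change 0.25) and 31 rose and 0 fell in FL-labelled cells (0.26). Nop56, a core protein of the particles that methylate ribosomal RNA, rose to 36.1 ± 3.27 CPM in KO-labelled TGF-β1 libraries against 21.2 ± 0.836 CPM untreated (SD, n = 3 each; 0.77, SE 0.09, edgeR adjusted p = 7.66e-07). Nvl and Heatr1, needed for large subunit maturation and for ribosomal RNA transcription, rose by 0.64 and 0.68 in both genotypes. Of 14 genes of RNA polymerase I and its factors, 8 rose in KO-labelled and 7 in FL-labelled cells and 0 fell, led by Ubtf, which binds ribosomal DNA (0.49 in KO-labelled and 0.41 in FL-labelled cells). Of 10 tested genes of the Myc network, 2 rose and 5 fell in each genotype, with medians of -0.19 in KO-labelled and -0.31 in FL-labelled cells. Myc, a transcription factor that drives ribosome biogenesis genes, rose by 0.88 in KO-labelled and 1.13 in FL-labelled cells, as did Mxi1, a member of the network that opposes Myc (0.62 and 0.64), while Mycl (-1.84 and -1.54), Mlxip (-0.42 and -0.41), Mxd4 (-0.56 and -0.43) and Mxd1 (-0.29 and -0.40) fell in both.

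Initiation factors rose at 10 and fell at 1 of 30 in KO-labelled cells and rose at 9 and fell at 1 in FL-labelled cells, with Eif2s1, the phosphorylated subunit of eIF2, at 0.49 and 0.51. Of 14 translation factors whose mRNAs carry TOP tracts, 3 rose in KO-labelled cells (Hnrnpa1, Tpt1 and Eif4b) and 2 in FL-labelled cells (Hnrnpa1 and Eif4b), and all 14 values were positive in both. Of 27 genes of mTORC1 and TOP control, 3 rose and 8 fell in KO-labelled cells and 4 rose and 7 fell in FL-labelled cells. Rptor, the subunit that recruits mTORC1 substrates, rose by 0.66 and 0.83, while the mTORC1 inhibitors Sesn1 (-0.97 and -1.02) and Deptor (-1.18 and -0.95) and Tsc1 (-0.26 and -0.26) fell. Of 20 tested ribosomal protein chaperones and p53 checkpoint genes, 7 rose and 2 fell in KO-labelled cells and 6 rose and 3 fell in FL-labelled cells, with Mdm2 at 0.84 and 0.78. Of 77 mitochondrial ribosomal protein genes, which form a separate ribosome, 12 rose and 2 fell in KO-labelled cells and 7 rose and 3 fell in FL-labelled cells, with medians of 0.08 and 0.05, shares of rises near or below those of all genes.

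Between genotypes in untreated cells, 1.29% of all genes were called higher and 1.1% lower. For mitochondrial ribosomal proteins 0 were called higher and 3 lower in KO-labelled cells, with a median of -0.15. Over all treatments their genes held 0.163 to 0.176% of counts in KO-labelled and 0.179 to 0.189% in FL-labelled libraries, which did not overlap. Of the biogenesis factors 2 were lower, Nop10 and Nhp2 (-0.45 each), which belong to the particles that pseudouridylate ribosomal RNA, and the median was -0.10. The TOP translation factors had 13 of 14 values negative and a median of -0.14. Mtor was higher (0.23, edgeR adjusted p = 0.0444).

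BMP4 changed 1 member in KO-labelled cells and 0 in FL-labelled cells by edgeR. Rpl36a had 173, 169 and 170 CPM with BMP4 and 131, 142 and 134 CPM untreated in KO-labelled cells (log2 fold change 0.33, SE 0.06, edgeR adjusted p = 0.0157), where 0.129% of all genes were called higher and 0.443% lower. In FL-labelled cells it had 191, 171 and 171 CPM with BMP4 and 182, 168 and 156 CPM untreated, which overlapped. The 3 KO-labelled BMP4 values lay within the range of FL-labelled libraries, above all KO-labelled untreated ones. With the replicate block 9 members rose in KO-labelled cells, beside 1.14% of all genes, and DESeq2 called 4 members and 181 of 14684 genes. With edgeR, leaving out either the KO-labelled untreated library numbered 1 or 3, or any KO-labelled BMP4 library, gave 0, beside 4 to 22 genes in all. In those fits 11 to 35 members and 1472 to 1886 genes had an unadjusted p under 0.05. Leaving out the untreated library numbered 2 gave 6, beside 112 genes in all. In FL-labelled cells 0.0% of all genes were called in either direction, DESeq2 also called 0 members, and 10 members (8 positive and 2 negative) and 1103 of 14684 genes had an unadjusted p under 0.05. The difference between the BMP4 responses was called for 0 members by edgeR and by DESeq2, with 5 members at an unadjusted p under 0.05 by each, beside 839 genes by edgeR and 678 by DESeq2.

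**Figure D5:**
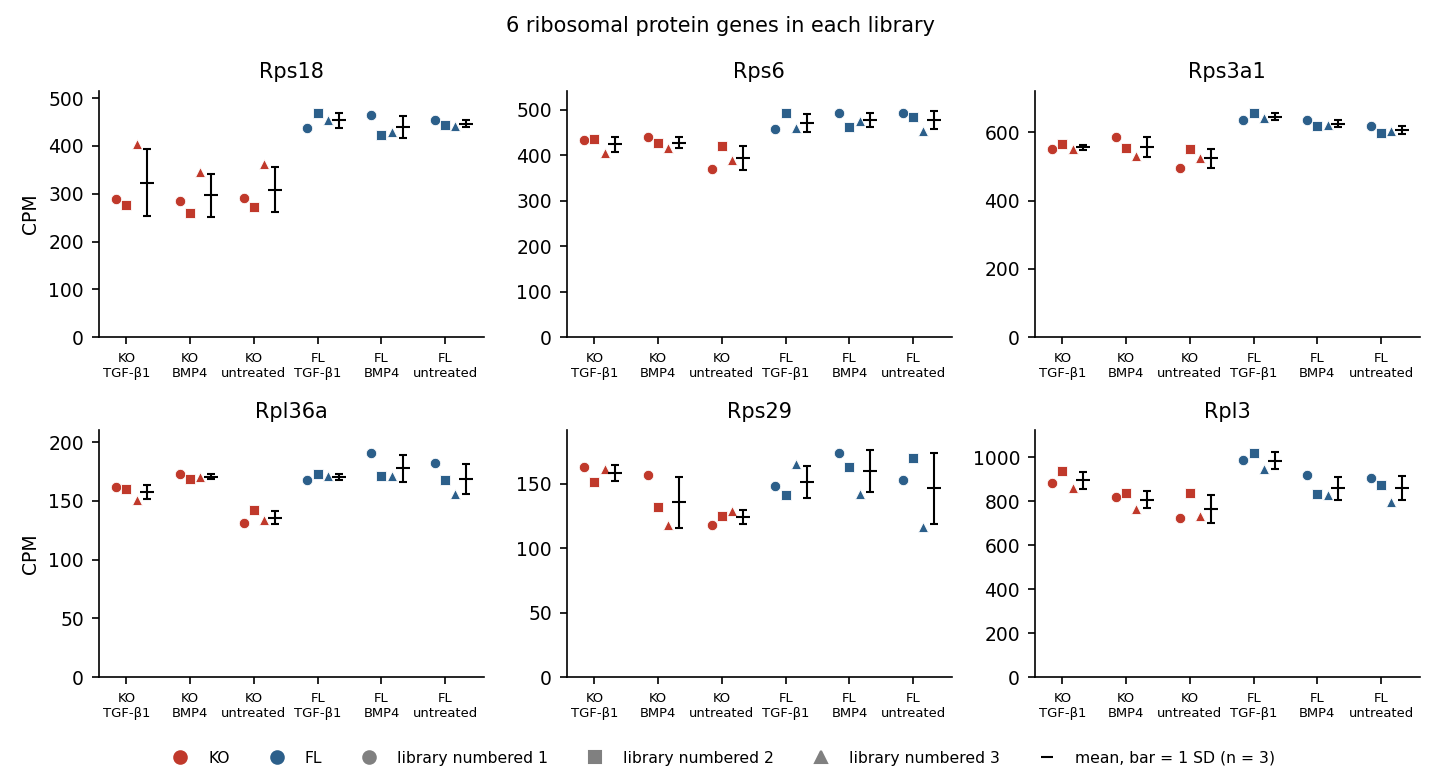
CPM of 6 members in each library (points, shape by number, linear axes from 0), with the mean and 1 SD of each group (n = 3) in black, KO-labelled groups left of FL-labelled groups. Rps18, Rps6 and Rps3a1 have every KO-labelled library below every FL-labelled one, and Rpl36a is lowest in KO-labelled untreated cells at 131 to 142 CPM.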

How the data were processed

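The authors deposited raw counts per gene and FPKM for 18 libraries. Per the submitters' processing notes, TopHat2 2.0.9, HTSeq 0.6.1 and Cufflinks 2.1.1 were used with mm10 (GRCm38.p6); the strand setting and the treatment of reads that fit several genes are not given in the sources used here. The deposited FPKM equal count over annotated gene length up to 1 factor per library, for all genes with 20 counts or more (tolerance 1e-06). The table also holds 78 columns of per-sample values that were not used.

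Counts of 14684 genes kept by filterByExpr were scaled by TMM (factors 0.978 to 1.02) and tested over all 18 libraries, with 1 mean per group, by edgeR 4.0.16 (R 4.3.3) and its quasi-likelihood test, with Benjamini-Hochberg adjustment over those genes, called under 0.05. The script was tested on simulated counts. CPM use the same scaling. The floor for a count of 0 was 3 counts per library and covers counting error only. Alternatives were DESeq2 1.42.0, limma 3.58.1 on log2(FPKM + 1) and log2(FPKM + 0.1), other scalings and filters, replicate blocks, leaving out libraries, and other denominators for the share.

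Same numbers pair libraries within a genotype (correlations of deviations from 0.11 to 0.326 over 18 pairs) and not between genotypes (-0.109 to 0.0687 over 27 pairs). The members and gene lists were chosen with earlier results of these data known. Genes named are up to 8 called members per direction and comparison, a fixed set of members, the 8 highest and lowest by FPKM, the 6 most variable within groups, and up to 3 called genes per list and direction. Other called or non-overlapping members were listed after their values were seen. Some genes are counted but not reported here by name. The split by library number and the pair of Rps2 and Rps2-ps10 were examined after the values were seen. The 297 pseudogenes named after ribosomal proteins hold 0.0239 to 0.0515% of counts per library, and reads shared with near-identical copies make members' counts uncertain. Promoter windows come from RefSeq and overlaps of exons from GENCODE M21, in which 84 of 86 members have the same start and end as in the deposited table.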

Additional observations from a re-analysis of the deposited data

How the results depend on the processing

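Counts of called members moved with the processing. For the named members that the main fit called, 318 values over the alternatives kept the call, 114 lost it and 0 changed sign. These members were picked because they passed the threshold, so their values could only keep or lose the call. They do not show how stable the directions of members are in general. Unless said otherwise, the cause was not tested. In untreated cells, KO-labelled against FL-labelled, the count of 27, beside 351 genes in all, became 41 beside 409 with total count scaling. No low-count filter gave 60 (1 of them higher) beside 817 of 29506 genes, and DESeq2 gave 43 beside 539. Only the groups compared gave 1 beside 29 genes. Leaving out the FL-labelled libraries numbered 1 gave 0 beside 39 genes. With 1 library left out the count was 0 to 56, beside 27 to 613 genes. With TGF-β1 on both sides the count of 3, beside 57 genes in all, became 1 beside 30 with RLE size factors. No filter gave 15 (1 higher) beside 394 genes, and DESeq2 gave 7 beside 189. Limma gave 1 at either pseudocount, beside 44 genes for FPKM + 1 and 18 for FPKM + 0.1. Only the groups compared gave 1 beside 19 genes. Leaving out the FL-labelled libraries numbered 1 gave 0 beside 2 genes. With 1 library left out the count was 0 to 1, beside 0 to 16 genes. With BMP4 on both sides the count of 0, beside 4 genes in all, became 14 with no filter (1 higher), beside 287 genes. For BMP4 against untreated, no filter gave 5 in KO-labelled and 2 in FL-labelled cells (1 higher and 1 lower), against 1 and 0. Genes called in all were then 240 and 69, against 84 and 0. In KO-labelled cells DESeq2 gave 4 beside 181 genes, and only the groups compared gave 0 beside 2. With 1 library left out the count there was 0 to 6, beside 4 to 112 genes. For TGF-β1 against untreated, leaving out 1 library gave 10 to 49 in KO-labelled cells, against 20, and 1 to 3 in FL-labelled cells, against 3. Genes called in all were then 4352 to 4660 in KO-labelled cells, against 5084, and 4202 to 4510 in FL-labelled cells, against 4841.

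With the library number as a replicate block within genotype, TGF-β1 against untreated gave 34 (1 of them lower) and BMP4 gave 9 in KO-labelled cells. Genes called in all were 5916 and 472. Between genotypes, where numbers did not pair libraries, this block gave 64 in untreated cells (1 higher), 26 with TGF-β1 (1 higher) and 16 with BMP4. Genes called in all were 1428, 723 and 314. A block over all groups gave 6 with TGF-β1 and 1 with BMP4, beside 97 and 10 genes. The block within genotype without the FL-labelled libraries numbered 1 gave 35 (1 lower) for TGF-β1 and 13 for BMP4 in KO-labelled cells. In FL-labelled cells it gave 7 for TGF-β1. Genes called in all were 5872, 442 and 4927. Between genotypes it gave 46 untreated, 19 with TGF-β1 and 7 with BMP4, beside 943, 459 and 268 genes. The KO-labelled minus FL-labelled share of counts, averaged over treatments, was -0.372 percentage points, -0.397 to -0.356 with 1 library left out, and -1.122 as a share of FPKM, which weights short genes more by construction. Averaged over genotypes, the share rose by 0.091 points with TGF-β1 (0.066 to 0.128 with 1 library left out) and by 0.113 points with BMP4 (0.084 to 0.151), with no test. Depth limits Rpl10l, Rpl3l and Rpl39l, and shared exon bases limit Rpl13a, Rpl24, Rps10 and Rpl36al.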
